A study of Homo sapiens with 26 samples.

Results

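The expression of 9 genes of the complement system was followed in human neuroblastoma cells, out of 26485 genes in the deposited tables. They comprise the proteases C1R and C1S, the components C3, C5 and C7, the soluble protease CFI, and the membrane regulators CD46, CD55 and CD59. The genes were taken by symbol, with earlier results of these libraries known. C7 was taken because its counts fell with both hairpins in the cell culture libraries described here, so its cell culture values are given as a description, with no test.

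Complement is a cascade of plasma and membrane proteins that marks cells for uptake and can pierce their membrane. C1r and C1s are the proteases of the first component, C3 is the protein on which all activation routes converge, and C5 and C7 belong to the terminal steps that build the membrane attack complex. Cells shield themselves with CD46, a cofactor with which factor I (CFI) cleaves C3b and C4b, with CD55, which speeds the decay of the convertases, and with CD59, which blocks assembly of the membrane attack complex. The liver makes most circulating components, whereas many nucleated cells, tumour cells among them, carry the membrane regulators.

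All 26 libraries came from KELLY, a cell line from a human neuroblastoma that carries many copies of MYCN. In culture, KELLY cells carried a doxycycline-inducible vector that was empty (EV, the control, which the labels call F1HUTG) or encoded the RUNX1T1 hairpin sh4 or shAMB, and each of these 3 lines was treated for 72 hours with DMSO or doxycycline, with 3 libraries per group. Every hairpin line, uninduced or induced, thus shared the vector backbone with the control, and each hairpin was carried by 1 line. KELLY tumours grown under the skin of female NOD SCID gamma mice, a few weeks old at engraftment, gave the other 8 libraries, of which 4 were labelled WT with control food and 4 RUNX1T1 KO with doxycycline food, although the study's methods describe inducible hairpins rather than a knockout. The paper grew its KELLY tumours with 1 hairpin, based on an Ambion sequence, and the sample titles do not say whether that is sh4 or shAMB. The time of tumour harvest was not given in the labels, and this host lacks T, B and NK cells. Since nothing said that the libraries of a culture group came from separate cultures, the p-values measure the spread between these libraries, which may be technical.

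RUNX1T1, the targeted co-repressor gene, did not pass the test for lower RNA in any of the 4 comparisons of doxycycline with DMSO or of KO with control. Its CPM (the count as a share of the TMM-scaled library total, on the usual CPM scale) ranged from 33.3 to 35.0 in sh4 with DMSO and from 30.1 to 33.9 with doxycycline, a log2 change of -0.11 (adjusted p = 0.117). In shAMB the ranges were 39.9 to 42.0 and 41.3 to 44.1 (0.06, adjusted p = 0.378), in EV 39.3 to 44.1 and 36.5 to 38.6 (-0.16, adjusted p = 0.672), and in the xenografts 30.002 to 43.1 and 24.3 to 35.2 (-0.23, adjusted p = 0.229). The exceptions among the alternatives were the removal of GC content and length trends, under which it was lower in sh4 (-0.30, adjusted p = 4.94e-05) and in the xenografts (-0.42, 0.00325), and, for sh4, the fit without doxycycline replicate 2 (-0.16, 0.0434). Without doxycycline RUNX1T1 was lower in sh4 than in EV (-0.29, adjusted p = 0.0144), a call lost without EV DMSO replicate 1 (0.106) or sh4 DMSO replicate 1 (0.0733) or 2 (0.0960). Its response in shAMB minus that in EV was called higher (0.21, adjusted p = 0.0353), but not under 13 of 18 alternatives, DESeq2 among them (0.16, 0.165). Groups are therefore named here by their labels, since no induced fall of the target RNA was called. The paper reports that RUNX1T1 protein was lower after doxycycline in KELLY cells with each of its hairpins. It also reports loss of RUNX1T1 immunostaining in KELLY tumours after knockdown. These libraries measure RNA only, so the values above do not show whether the protein fell. Libraries held 35115908 to 54736731 counts in culture and 47346057 to 62378057 in xenografts. The 8 neuroblastoma markers, among them HAND2 and MYCN, were present in every group, with a median sum of 3343 CPM in EV with DMSO and 3647 with doxycycline, 3499 and 4597 in sh4, 3247 and 7677 in shAMB, and 3582 and 8276 in control and KO xenografts. MYCN rose in sh4 (log2 0.68), shAMB (1.57) and KO tumours (1.46), and HAND2 rose in sh4 (0.23) and fell by 0.55 in shAMB.

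The membrane regulators were the abundant members and the fluid-phase components were scarce or absent. Per kilobase of transcript, levels in uninduced EV cells were 46.6 ± 3.88 CPM for CD46, 9.03 ± 0.860 for CD55 and 6.07 ± 0.148 for CD59 (SD, n = 3). C1S followed at 1.14 ± 0.116 CPM per kilobase, C7 at 0.713 ± 0.046, C1R at 0.426 ± 0.137 and C5 at 0.179 ± 0.00483, and no neighbours in this order overlapped between libraries. The order changed below the regulators elsewhere. In uninduced shAMB cells C7 (2.62 ± 0.205 CPM per kilobase) stood above C1S (1.25 ± 0.178), and in control xenografts C7 (0.241 ± 0.0525), C1R (0.186 ± 0.0543), C5 (0.178 ± 0.0589) and C1S (0.140 ± 0.0477, n = 4) overlapped.

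C3, the hub of the cascade, was represented by 1 count in the 18 culture libraries together and by 0 in the 8 xenografts. CFI had 1 count in each of these sets. A library at 0 allows up to 3 counts, which corresponds to 0.0525 to 0.0865 CPM in culture and 0.0467 to 0.0677 CPM in xenografts, so both genes were below what this depth detects and neither was tested. These limits cover counting error only.

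CD46 lies on chromosome 1 at 207752038 to 207795516 (GRCh38, plus strand). CD55 is in the same regulator cluster at 207321678 to 207360966, ending 391071 bases before CD46. In uninduced sh4 libraries CD46 measured 133, 137 and 145 CPM, and with doxycycline 216, 202 and 171 CPM. Every induced library was above every uninduced one, and the difference was 1.42-fold (log2 0.50, SE 0.0759, adjusted p = 6.28e-05, edgeR's quasi-likelihood test). In shAMB the values were 165, 170 and 162 CPM with DMSO and 182, 178 and 167 CPM with doxycycline. These groups overlapped, with a log2 difference of 0.08 (95% confidence interval -0.08 to 0.25, adjusted p = 0.340). This difference passed the test with GC content and length trends removed (0.26) and on deposited TPM (0.27). EV cells measured 164, 157 and 139 CPM with DMSO and 147, 139 and 152 CPM with doxycycline, a log2 difference of -0.07 (-0.23 to 0.09, adjusted p = 0.699). The exons of CD46 share 5.14% of their bases with the antisense gene MIR29B2CHG, and whether counting used strand was not given in the sources used here.

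CD55 showed the largest response of the regulators to sh4. Its CPM was 18.9, 20.9 and 22.2 in uninduced sh4 libraries and 35.8, 33.7 and 30.9 with doxycycline, without overlap, a 1.62-fold rise (log2 0.69, SE 0.0818, adjusted p = 5.56e-06). In shAMB the DMSO libraries lay within 23.6 to 23.7 CPM and the doxycycline libraries at 28.9, 28.7 and 25.0 CPM. They did not overlap, and the 1.17-fold difference passed the test (log2 0.22, adjusted p = 0.0253), but not with RLE scaling (0.15, adjusted p = 0.158), without a count filter (0.18, 0.104), with DESeq2 (0.15, 0.194), with the shAMB libraries alone (0.14, 0.0985), or without any single library other than doxycycline replicate 3 (adjusted p between 0.0568 and 0.0943). In EV, CD55 measured 24.6, 23.5 and 20.4 CPM with DMSO and 20.4, 21.0 and 21.4 CPM with doxycycline (log2 -0.13, -0.30 to 0.05, adjusted p = 0.672).

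CD59 (GRCh38, chromosome 11, bases 33703010 to 33736479, minus strand) encodes the small anchored protein that stops the attack complex at its last step. Uninduced sh4 libraries held 41.2, 44.4 and 43.2 CPM and induced ones 64.7, 60.9 and 56.9 CPM. Uninduced shAMB libraries held 46.8, 48.7 and 47.0 CPM and induced ones 61.9, 61.8 and 56.0 CPM. Neither pair overlapped, and CD59 rose 1.42-fold in sh4 (log2 0.50, SE 0.0551, adjusted p = 2.52e-06) and 1.26-fold in shAMB (0.34, SE 0.0551, adjusted p = 7.07e-05). EV cells stayed between 44.4 and 47.5 CPM in all 6 libraries, with a log2 difference of 0.00 (-0.12 to 0.12, adjusted p = 0.991) whose sign turned with RLE scaling (-0.02). In exon bases, 5.96% of CD59 is shared with another annotated gene on the same strand.

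**Figure D1:**
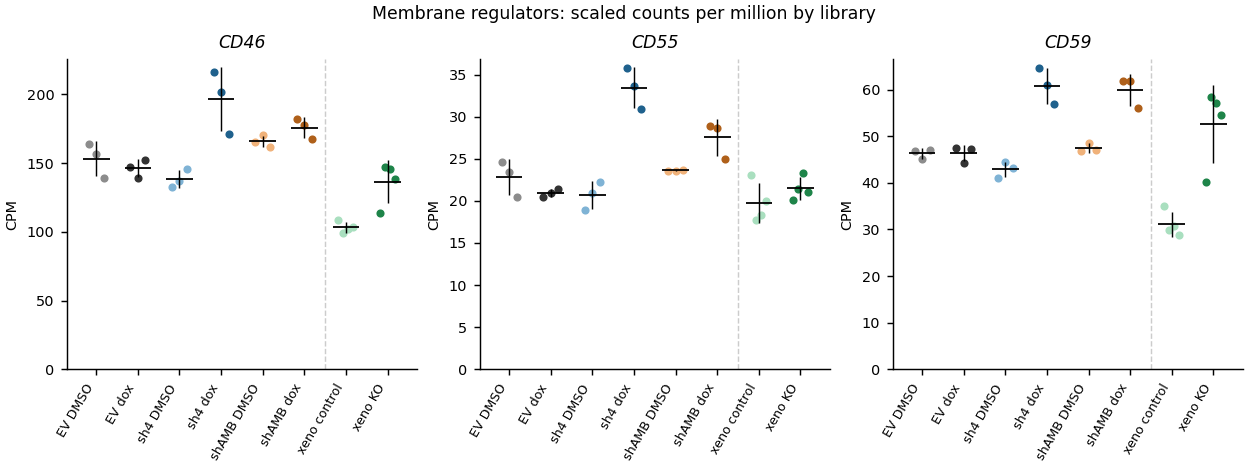
TMM-scaled counts (CPM) of CD46, CD55 and CD59 in each library, by group, with the y axis from 0. Points are libraries, horizontal bars group means and vertical bars 1 SD. The induced sh4 libraries sit above the uninduced ones for all 3 genes, and the KO xenografts sit above the controls for CD46 and CD59.

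In the xenografts CD46 and CD59 were higher in the tumours labelled KO, whereas CD55 did not pass the test. CD59 measured 35.0, 29.9, 30.8 and 28.7 CPM in control tumours and 40.2, 58.3, 57.1 and 54.6 CPM in KO tumours, 1.69-fold higher (log2 0.76, SE 0.126, adjusted p = 0.000837). CD46 measured 109, 99.3, 102 and 103 CPM in controls and 114, 148, 146 and 138 CPM in KO tumours, 1.32-fold higher (log2 0.40, SE 0.0941, adjusted p = 0.00609). On deposited TPM neither was called, with CD59 at 0.76 (adjusted p = 0.125) and CD46 at 0.44 (0.459). In CPM, for both genes all 4 KO tumours were above all 4 controls, with KO replicate 1 the nearest to them. CD55 ranged from 17.7 to 23.1 CPM in controls and from 20.1 to 23.3 CPM in KO tumours, with overlap (log2 0.12, -0.13 to 0.37, adjusted p = 0.434). In bulk RNA, fewer cells that express a gene and less of its RNA per cell cannot be told apart.

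The xenografts also held some RNA read as genes of other cell types. The 10 fibroblast markers summed to between 74.6 and 116 CPM in control and between 108 and 161 CPM in KO tumours, against 102 to 191 CPM in the cultured cells, where host cells are absent. The 10 macrophage and leukocyte markers summed to between 1.41 and 1.95 CPM in control and between 3.97 and 4.85 CPM in KO tumours, with 1 gene, MRC1, going from between 2 and 10 counts to between 64 and 171. That sum also went from between 0.858 and 0.990 to between 1.92 and 3.13 CPM with doxycycline in cultured shAMB cells, where host cells are absent. MRC1 (log2 3.49, adjusted p = 0.000169) and CD68 (1.31, 0.000292) were higher there, whereas FCER1G, from the same list, was lower (-2.23, 0.000833). The list thus did not rise as a whole in those cells. PTPRC, which defines leukocytes, had at most 10 counts in any tumour. The 8 endothelial markers summed to between 1.24 and 2.29 and between 1.34 and 2.06 CPM, the 6 hepatocyte markers to at most 0.518 CPM and the 5 erythroid markers to at most 0.250 CPM. Removal of mouse reads was not given in the sources used here, and the part of these transcripts in the xenograft results was not tested.

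C1S and C1R, which lie 9186 bases apart on chromosome 12 (C1S at 7060718 to 7071032, plus strand, and C1R at 7080219 to 7092445, minus strand, GRCh38), are neighbours in opposite orientation. C1S rose in sh4 and fell in shAMB. In sh4 it measured 4.09, 4.09 and 3.92 CPM with DMSO and 5.95, 6.31 and 4.39 CPM with doxycycline, a non-overlapping 1.38-fold rise (log2 0.46, SE 0.140, adjusted p = 0.0154). That call was lost without induced replicate 1 (0.41, adjusted p = 0.0577), without induced replicate 2 (0.36, 0.0874) and with the sh4 libraries alone (0.46, 0.0740). In shAMB it measured 3.30, 3.07 and 4.01 CPM with DMSO and 1.97, 1.91 and 1.78 CPM with doxycycline, so that it fell by 0.87 on the log2 scale (SE 0.150, adjusted p = 0.000105), without overlap. EV cells also went from 2.97, 3.51 and 2.94 to 2.03, 2.64 and 2.55 CPM, again without overlap, but this log2 difference of -0.38 (-0.70 to -0.06) had an unadjusted p of 0.0222 and an adjusted p of 0.672.

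C1S gave the largest rise among the members in the xenografts. Its counts were 21, 22, 11 and 24 in control tumours and 67, 122, 80 and 90 in KO tumours, or 0.197 to 0.497 CPM against 1.17 to 2.15 CPM. The KO tumours were 4.09-fold higher (log2 2.03, SE 0.329, adjusted p = 0.000704), and no KO tumour overlapped the controls. The macrophage and leukocyte sum given above was higher in all 4 KO tumours than in any control, and the fibroblast sum overlapped. That macrophage and leukocyte sum also rose with doxycycline in cultured shAMB cells, where C1S fell. A relation of C1S to either sum was not tested. On deposited TPM the C1S difference was 1.21, on a scale that understates low genes.

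C1R did not pass the test in any comparison. Its CPM was 2.13, 1.97 and 1.81 in uninduced sh4 libraries and 2.55, 2.74 and 3.09 in induced ones, which did not overlap (log2 0.50, 0.08 to 0.92, adjusted p = 0.0535). The difference passed with GC content and length trends removed (0.55, adjusted p = 0.0089), with the sh4 libraries alone (0.50, 0.0412) and on deposited TPM (0.65, 0.0129). The shAMB groups overlapped, at 1.04 to 1.45 and 1.06 to 1.68 CPM (log2 0.08, -0.38 to 0.53, adjusted p = 0.770), and the sign turned with GC content and length trends removed (-0.37). The same was true of EV, at 0.730 to 1.41 and 0.776 to 1.01 CPM (-0.19, adjusted p = 0.710), and of the xenografts, at 0.299 to 0.602 and 0.440 to 0.638 CPM (0.10, -0.56 to 0.76, adjusted p = 0.816), where signs also turned under alternatives. Of the exon bases of C1R, 11.6% are shared with C1RL on the same strand.

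C5 (GRCh38, chromosome 9, bases 120952335 to 121074865, minus strand), the substrate of the terminal convertases, was detected at 20 to 107 counts per library. No comparison of 2 groups called it. It measured 1.06, 0.780 and 1.07 CPM with DMSO and 1.55, 1.36 and 1.02 CPM with doxycycline in shAMB (log2 0.43, -0.03 to 0.90, adjusted p = 0.0923), which passed without induced replicate 3 (0.58, adjusted p = 0.0390), with GC content and length trends removed (0.53, 0.0242) and on TPM (0.49, 0.0284). In sh4 it ranged from 0.673 to 1.03 and from 0.934 to 1.06 CPM (0.17, -0.31 to 0.64, adjusted p = 0.578), and the sign turned without uninduced replicate 1 (-0.01). EV cells measured 0.958, 0.971 and 1.01 CPM with DMSO and 0.576, 0.503 and 0.926 CPM with doxycycline, below without overlap (-0.56, unadjusted p = 0.0333, adjusted p = 0.672). Xenograft values were 0.702 to 1.43 CPM in controls and 1.20 to 2.06 CPM in KO tumours, with overlap (0.67, 0.04 to 1.30, adjusted p = 0.0846), and passed without control replicate 1 (0.87, adjusted p = 0.0344) and with the trends removed (0.57, 0.0496).

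C7, which joins C5b and C6 and lets the growing complex insert into membranes, is on chromosome 5 at 40909497 to 40984643 (GRCh38, plus strand). In culture it was chosen by its fall, and the following values describe that choice. In sh4 its 3 uninduced libraries held 261, 229 and 192 counts, and the induced ones 50, 72 and 64 (5.02, 4.50 and 4.70 against 1.18, 1.40 and 1.57 CPM). In shAMB the uninduced libraries held 459, 372 and 393 counts and the induced ones 15, 19 and 17 (11.3, 9.67 and 10.5 against 0.336, 0.332 and 0.392 CPM). EV libraries held 129, 111 and 92 counts with DMSO and 100, 86 and 95 with doxycycline (2.94, 2.99 and 2.65 against 2.50, 2.16 and 2.67 CPM). The fitted log2 differences were -1.77 in sh4, -4.89 in shAMB and -0.23 in EV. The uninduced lines were already unequal, at 2.86 ± 0.185 CPM in EV, 4.74 ± 0.259 in sh4 and 10.5 ± 0.821 in shAMB (SD, n = 3). The 3 induced shAMB libraries were the lowest of the 18 cell culture libraries, and the next were the 3 induced sh4 libraries.

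The xenografts were not used to choose C7. Control tumours held 46, 45, 38 and 71 counts of C7 and KO tumours 5, 12, 5 and 13 (0.982, 1.02, 0.681 and 1.19 against 0.0872, 0.211, 0.0779 and 0.250 CPM). The KO tumours were lower without overlap and the log2 difference was -2.63 (SE 0.396, 95% confidence interval -3.50 to -1.76, adjusted p = 0.000452), and -0.85 on deposited TPM, where it also passed. These counts are low, and the tumours came from the same cell line as the cultures, so the value is not independent support for the fall in culture.

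**Figure D2:**
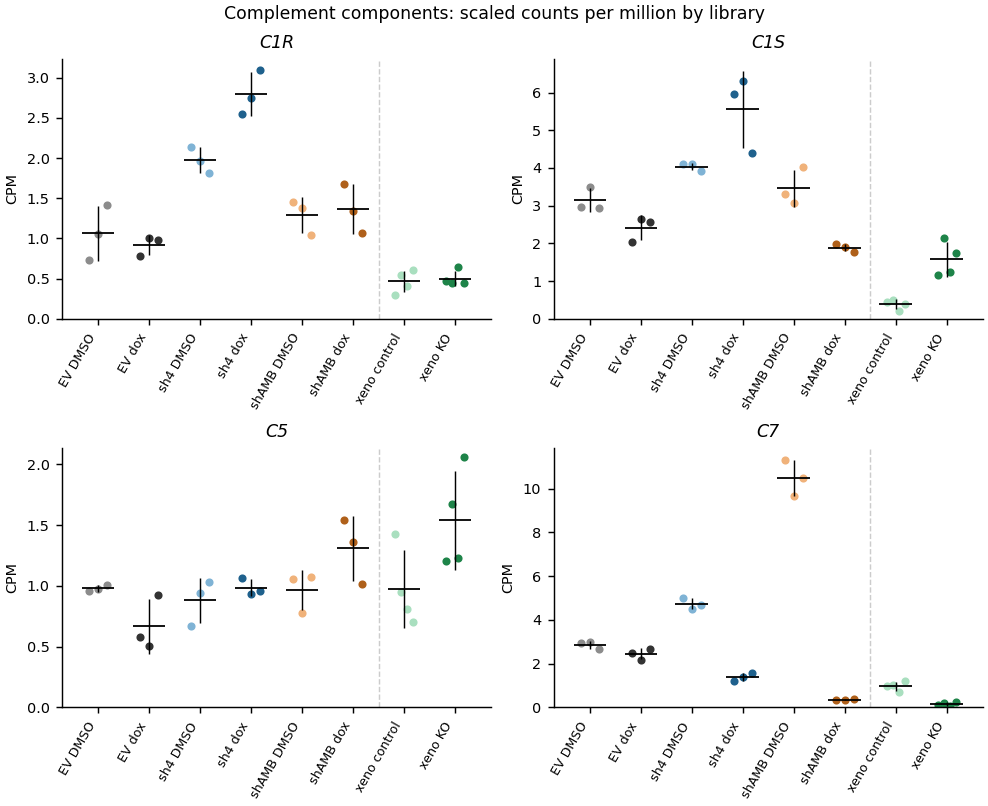
TMM-scaled counts (CPM) of C1R, C1S, C5 and C7 in each library, by group, with the y axis from 0 and a scale of its own in each panel. Points are libraries, horizontal bars group means and vertical bars 1 SD. C7 falls to 0.353 CPM in induced shAMB cells from 10.5 CPM, and C1S goes up in sh4 and down in shAMB.

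The upstream sequences of C7 and of the regulators differ in base composition. RefSeq promoters (GRCh38.p14) were matched for 7 of the 9 members, and the 250 bases before the gene start are shown for the gene that fell and for the 3 regulators that rose together with sh4. Capitals mark the motif CANNTG, the core bound by basic helix-loop-helix factors such as MYCN with MAX and HAND2, or TTCNNNGAA, the gamma-activated site, and both were searched on both strands. C7 covers chr5:40909247-40909496 (plus strand), CD46 chr1:207751788-207752037 (plus), CD55 chr1:207321428-207321677 (plus) and CD59 chr11:33736480-33736729 (minus).
C7: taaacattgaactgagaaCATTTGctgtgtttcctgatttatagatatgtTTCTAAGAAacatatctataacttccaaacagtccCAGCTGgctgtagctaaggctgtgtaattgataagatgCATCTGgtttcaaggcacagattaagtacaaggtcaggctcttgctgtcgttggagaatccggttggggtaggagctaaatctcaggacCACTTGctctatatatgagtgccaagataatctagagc
CD46: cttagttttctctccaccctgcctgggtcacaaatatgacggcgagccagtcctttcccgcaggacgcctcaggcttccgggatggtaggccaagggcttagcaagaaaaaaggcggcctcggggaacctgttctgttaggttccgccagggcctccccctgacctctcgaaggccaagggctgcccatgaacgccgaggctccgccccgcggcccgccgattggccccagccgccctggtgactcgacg
CD55: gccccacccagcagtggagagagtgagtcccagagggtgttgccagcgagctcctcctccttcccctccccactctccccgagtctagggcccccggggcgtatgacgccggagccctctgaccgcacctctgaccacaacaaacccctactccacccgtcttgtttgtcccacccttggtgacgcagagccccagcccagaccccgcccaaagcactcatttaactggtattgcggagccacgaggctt
CD59: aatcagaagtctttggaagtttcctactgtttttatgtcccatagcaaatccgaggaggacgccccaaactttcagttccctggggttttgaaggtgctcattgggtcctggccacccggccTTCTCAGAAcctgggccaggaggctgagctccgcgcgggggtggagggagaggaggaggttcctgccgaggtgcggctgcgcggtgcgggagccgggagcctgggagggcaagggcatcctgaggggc

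The C7 sequence holds 4 CANNTG matches, beginning 232, 165, 127 and 38 bases before the gene start, and at least that many occur in 3.45% of 27305 promoters of the same length. Any CANNTG match is found in 62.2% of promoters. None of the CD46, CD55 and CD59 windows holds those letters, and of the 7 members with an entry only C7 and C1R do. The MYCN and MAX form CACGTG, a subset of CANNTG that 6.46% of promoters hold, and the repeat core of the interferon-stimulated response element (3.07% of promoters) match in none of the 7. TTCNNNGAA (6.76% of promoters) matches once in C7, 200 bases before the start, and once in CD59, 128 bases before it. The GC content is 40.8% for C7, against 64.8% for CD46, 64.0% for CD55 and 62.0% for CD59, and the median over all promoters is 57.6%. A match is a string of letters and not a measured binding site.

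Counted over the 8 members other than C7, of which 6 had enough counts to test, 4 were higher with doxycycline in sh4 (CD46, CD55, CD59 and C1S), and C1R and C5 did not pass. Over all 14905 genes tested, 22.9% were called higher and 18% lower in sh4. In shAMB 2 members were higher (CD55 and CD59) and 1 lower (C1S), where 37.6% of all genes were higher and 28.4% lower, so this share is near the background. EV called none of the 6, with 0.0134% of all genes higher and 0.0805% lower, and DESeq2 also called none. C1S and C5 had unadjusted p-values under 0.05 in EV, as had 879 of all 14905 genes tested. The median log2 difference of the 6 was 0.50 in sh4, 0.15 in shAMB and -0.16 in EV, against 0.00, 0.10 and 0.01 over all genes tested. In the xenografts, where all 9 members count, 3 of 7 tested were higher (CD46, CD59 and C1S) and 1 lower (C7), with 21.2% of 15960 genes higher and 19.9% lower. The median was 0.40 over these 7 and 0.02 over all genes.

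**Figure D3:**
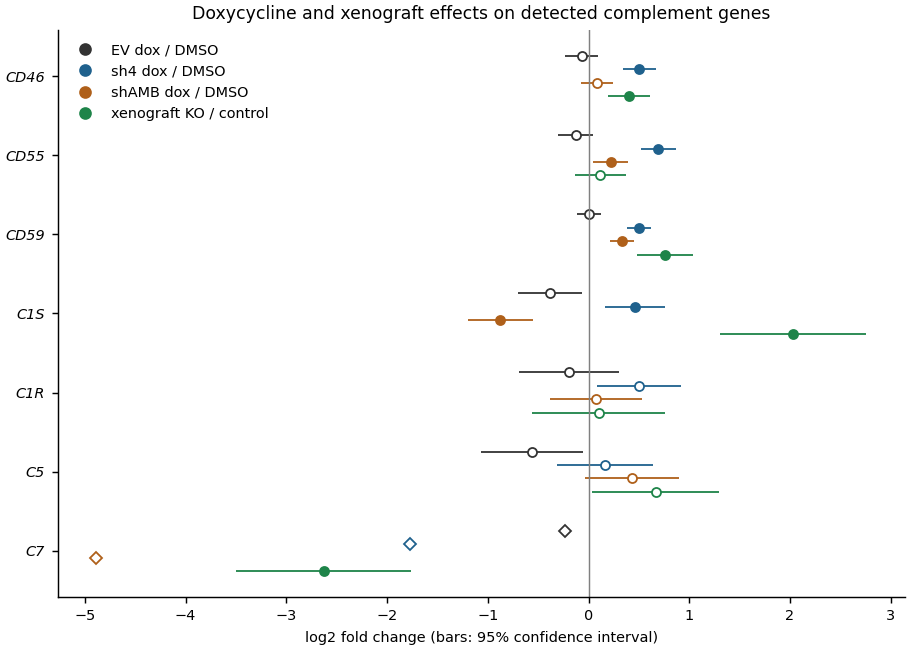
Log2 fold changes of the 7 detected members for doxycycline against DMSO in EV, sh4 and shAMB and for KO against control xenografts. Filled circles passed an adjusted p of 0.05, bars are 95% confidence intervals, and open diamonds are the C7 values that are described without a test. CD59 is filled in sh4, shAMB and xenografts, and EV has no filled circle.

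The split of called genes into higher and lower moved with the scaling, which matters for these background shares. With GC content and length trends removed it was 3471 higher and 4315 lower in sh4, 4443 and 5491 in shAMB, and 3159 and 4871 in xenografts, against 3410 and 2681, 5602 and 4238, and 3382 and 3173. On deposited TPM it was 5777 and 1412 in sh4, 7513 and 2797 in shAMB, and 1547 and 581 in xenografts.

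Differences between the doxycycline responses were tested directly. The response in sh4 exceeded that in EV for 4 members, namely C1S (log2 0.84, adjusted p = 0.00547), CD46 (0.57, 0.000812), CD55 (0.82, 7e-05) and CD59 (0.50, 0.000172), where 17.8% of all genes were called higher and 14.7% lower. The response in shAMB exceeded that in EV for C5 (0.99, adjusted p = 0.0203), CD55 (0.35, 0.0221) and CD59 (0.33, 0.00259), with 23.7% of all genes higher and 21.7% lower. Of these, CD59 passed under every alternative, whereas with DESeq2 neither C5 (adjusted p = 0.0589) nor CD55 (0.0704) did, and C5 also failed without EV doxycycline replicate 1 (0.0545) or 2 (0.0601), shAMB DMSO replicate 2 (0.0541) or shAMB doxycycline replicate 1 (0.0509). CD55 also failed with RLE scaling (0.0677), without a count filter (0.0714), and without EV DMSO replicate 1 or 2, EV doxycycline replicate 1 or shAMB doxycycline replicate 1 or 2 (adjusted p between 0.0520 and 0.0620). C1S in shAMB did not differ from EV past the threshold (-0.49, -0.94 to -0.04, adjusted p = 0.0706), but did without EV doxycycline replicate 1 (-0.61, 0.0348) and with GC content and length trends removed (-0.51, 0.0339). Nor did CD46 in shAMB (0.15, 0.266), which passed with the trends removed (0.24, 2.03e-05) and on TPM (0.38, 0.0141). In sh4, C1R (0.70, 0.0927) passed with the trends removed, without EV DMSO replicate 1 and on TPM. C5 in sh4 (0.72, 0.101) passed without EV doxycycline replicate 3 and on TPM.

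The hairpins differed from each other for 3 members, all with a higher response in sh4, namely C1S (log2 1.34, adjusted p = 5.39e-05), CD46 (0.42, 0.00339) and CD55 (0.47, 0.00258), where 27.8% of all genes were called higher and 33.1% lower. CD59 did not pass (0.17, 0.00 to 0.33, adjusted p = 0.0721), although it did with RLE scaling (0.24, 0.0274), with DESeq2 (0.24, 0.0261) and without sh4 doxycycline replicate 3 (0.25, 0.00909). These contrasts share the EV or hairpin libraries with the ones above. The C7 response, as a description, was -1.54 in sh4 and -4.66 in shAMB relative to EV.

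Without doxycycline, no member other than C7 was called between a hairpin line and EV, which does not show that the lines were equal. Uninduced sh4 and uninduced shAMB each called 0 of 6 against uninduced EV, where 0.597% and 1.11% of all genes were higher and 0.523% and 0.416% lower. C1R was nearest in sh4, at 1.97 ± 0.161 against 1.06 ± 0.341 CPM (SD, n = 3, log2 0.90, adjusted p = 0.0557), and passed with DESeq2 (0.89, adjusted p = 0.0249), with GC content and length trends removed (0.70, 0.0423) and without EV DMSO replicate 3 (1.15, 0.0215). At an unadjusted p under 0.05 the counts were 2 of 6 in sh4 (C1R and C1S) and 0 of 6 in shAMB. Over all 14905 genes tested they were 4180 and 1639.

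Of 52 other complement genes listed by their place in the cascade, 15 had enough counts to test in culture and 12 in xenografts. EV called 0 of the 15, with 0 also at an unadjusted p under 0.05, where 879 of all 14905 genes tested had one. In sh4, 3 were higher and 1 lower, in shAMB 2 were higher and 4 lower, and in the xenografts 1 was higher and 2 lower. These are smaller shares than the 22.9% and 18%, 37.6% and 28.4%, and 21.2% and 19.9% of all genes called higher and lower, when both directions are added. Their median log2 differences were 0.26, 0.07 and 0.02, against 0.00, 0.10 and 0.02 over all genes. No gene particular to the alternative pathway had enough counts to test.

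Among the inhibitors, SUSD4, a membrane protein with complement control repeats, rose with both hairpins and in the KO xenografts, under all alternatives run. It measured 0.806 to 1.25 CPM in uninduced and 1.62 to 2.15 CPM in induced sh4 cells (1.93-fold, adjusted p = 0.000779), 1.07 to 1.53 and 5.22 to 5.86 CPM in shAMB (4.36-fold, adjusted p = 6.41e-08), and 13.8 to 15.7 and 28.8 to 36.7 CPM in control and KO xenografts (2.24-fold, adjusted p = 3.44e-05). None of these pairs overlapped, and EV cells stayed between 0.901 and 1.33 CPM. SERPING1, which encodes the C1 inhibitor that inactivates C1r and C1s, fell by 0.48 on the log2 scale in shAMB (11.02 to 12.6 against 7.97 to 8.95 CPM, adjusted p = 0.00176) and by 0.71 in the xenografts (6.13 to 7.41 against 3.69 to 4.52 CPM, adjusted p = 0.00269), and measured 12.8 to 14.2 against 14.4 to 17.6 CPM in sh4 (0.26, adjusted p = 0.0722). Of 13 alternatives, that sh4 difference passed only with GC content and length trends removed (0.28), on TPM (0.43) and without induced replicate 1 (0.34). The SERPING1 response in sh4 did not differ from that in EV past the threshold (0.18, -0.16 to 0.51, adjusted p = 0.400). A rise with sh4 is thus not established, although the sh4 response exceeded that in shAMB (0.74, adjusted p = 0.00102). C1QBP, a mostly mitochondrial protein that binds C1q, fell by 0.43 in shAMB (adjusted p = 5.93e-05) and by 0.44 in the xenografts (adjusted p = 0.00923). On deposited TPM the xenograft difference was not called for SERPING1 (-0.62, adjusted p = 0.234) or C1QBP (-0.39, 0.555).

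Other calls were made in 1 arm each. In sh4, COLEC12 (log2 1.28) and CSMD3 (1.12) were higher and COLEC11 (-0.77) lower, and in shAMB C1RL (0.91) was higher. These genes, and C8A and CSMD1, were chosen after their values were seen. CSMD3 was not called with DESeq2 (adjusted p = 0.0612) or without uninduced replicate 2 (0.0524), and COLEC11 not with the sh4 libraries alone (0.0611). In EV the CSMD3 difference was 0.57 (adjusted p = 0.676), and its sh4 response did not differ from that in EV past the threshold (0.54, 0.553). The sh4 responses of COLEC12 (1.19, 0.0139) and COLEC11 (-0.83, 0.0139) did. The terminal component C8A separated the lines rather than the treatments. It had 23 to 60 counts in the 6 EV libraries, 0 in all 6 sh4 libraries and 0 to 1 in the 6 shAMB libraries, and was called lower in both uninduced hairpin lines (adjusted p = 5.23e-05 and 0.000101). CSMD1 was called higher in uninduced sh4 (log2 1.98) and in uninduced shAMB (0.88), the latter not without a count filter (adjusted p = 0.0546), on TPM (0.149), or without EV DMSO replicate 1, 2 or 3 or shAMB DMSO replicate 1 or 3 (0.0778 to 0.180).

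**Figure D4:**
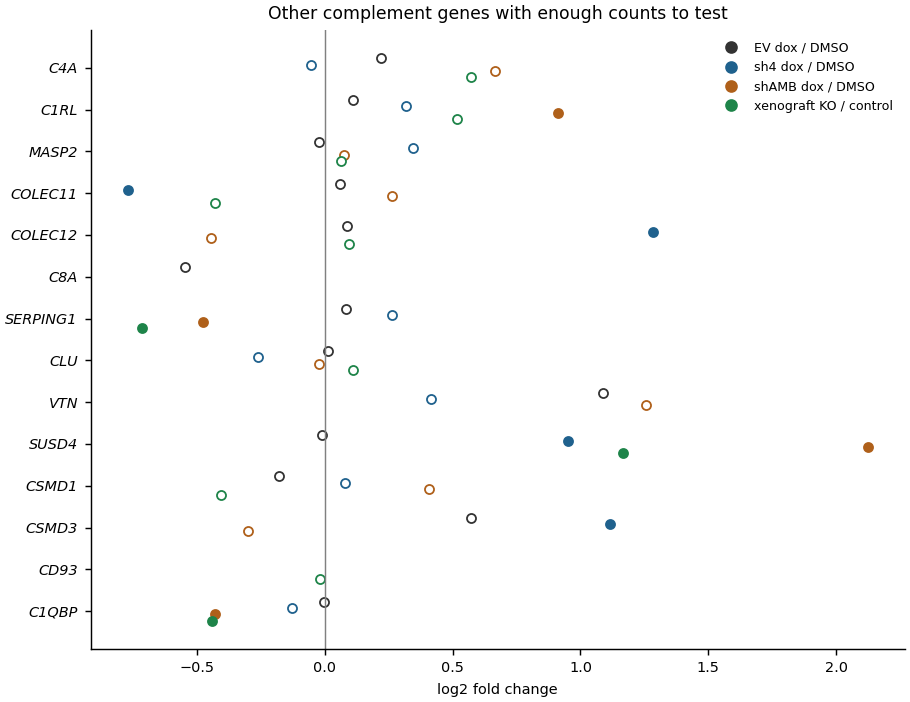
Log2 fold changes of 14 other complement genes with enough counts to test, by comparison, leaving out points where neither group had over 3 counts in a library. Filled circles passed an adjusted p of 0.05 and open ones did not. SUSD4 is filled at 0.95, 2.12 and 1.17 in sh4, shAMB and xenografts.

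The genes whose culture profile was most like that of C7 were sought among 12708 genes that averaged 1 CPM or more in culture, by the root mean square difference of centred log2 CPM over the 18 libraries. They were PLCXD3 (0.750), KDR (0.765), ERICH3 (0.776), PAQR8 (0.805) and GPX3 (0.812), and the median gene stood at 1.497. PAQR8, the most abundant of them, averaged 64.7 CPM in uninduced EV, 65.5 in uninduced sh4 and 66.8 in uninduced shAMB, and 21.3 and 14.5 CPM in induced sh4 and shAMB. GPX3, a secreted glutathione peroxidase, averaged 24.4 and 13.4 CPM in sh4 and 21.7 and 4.23 CPM in shAMB without and with doxycycline. KDR, a receptor of vascular endothelial growth factor, averaged 1.70 and 0.290 CPM in shAMB. The libraries share group and line, so this likeness is a description, and a gene that fell in both hairpin lines had to score well.

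**Figure D5:**
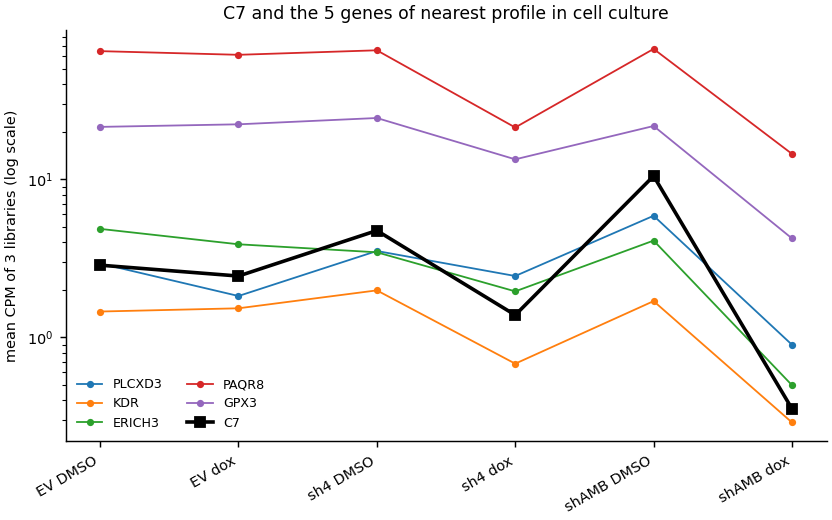
Mean TMM-scaled counts (CPM, log scale) of C7 and the 5 genes of nearest profile in the 6 cell culture groups, 3 libraries each. C7 rises from EV to sh4 to shAMB in the uninduced lines, whereas PAQR8 and GPX3 start from near-equal levels in all 3.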

How the data were processed

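The 18 KELLY culture libraries and 8 xenograft libraries were made with a stranded total RNA kit per the labels, which also give polyA RNA as the molecule. The authors deposited expected counts per gene (RSEM, after STAR alignment to hg38 and SAMtools, per the submitters' processing notes) and TPM for culture and xenografts, with gene lengths for culture. Versions, strand setting and removal of mouse reads were not given in the sources used here. Column words for negative and positive were read as DMSO and doxycycline. Expected counts were rounded. edgeR 4.0.16 in R 4.3.3 (TMM, filterByExpr, quasi-likelihood test, two-sided, Benjamini-Hochberg over all genes tested, threshold 0.05) was fitted to all 18 culture libraries together and to the 8 xenografts alone, leaving 14905 and 15960 of 26485 genes. The steps were tested on simulated data. Members and gene lists were chosen with earlier results of these data known. Named were all members, RUNX1T1, other complement genes called in at least 2 of sh4, shAMB and xenografts with a mean of at least 1 CPM, and the 5 profiles nearest C7. Genes called in 1 arm, C8A, CSMD1, MYCN, HAND2, MRC1, CD68 and FCER1G were named after their values were seen. Alternatives were RLE scaling, no count filter, DESeq2 1.42.0, GC content and length trends removed (GC known for 87.4% of genes), a replicate block, each library left out, each line alone, and, added after seeing the data, limma 3.58.1 on log2(TPM + 0.1). Exon overlaps came from GENCODE on GRCh38, positions and promoters from RefSeq GRCh38.p14. Depth was 35115908 to 62378057 counts per library. A few listed genes are not reported here by name, though they enter the counts of their lists.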

Additional observations from a re-analysis of the deposited data

Results flagged for a closer look

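C1R in KO xenograft replicate 3, at 0.638 CPM, stood apart from the other 3 KO tumours, which lay between 0.440 and 0.471 CPM. By the same criterion (Dixon's test) chance singles out about 5% of groups, and 14 gene and group pairs were looked at.

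Responses to doxycycline that differed between lines, by the interaction term of the edgeR fit, were the other 10 results singled out. For sh4 minus EV the log2 differences were 0.84 for C1S, 0.57 for CD46, 0.82 for CD55 and 0.50 for CD59. For shAMB minus EV they were 0.99 for C5, 0.35 for CD55 and 0.33 for CD59. For sh4 minus shAMB they were 1.34 for C1S, 0.42 for CD46 and 0.47 for CD55. The EV values entering the C5 difference came from 20 to 42 counts per library.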

How the results depend on the processing

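Of the 21 calls on members, 15 passed under every alternative run, and the exceptions are C1S in sh4, CD55 in shAMB, C5 and CD55 in shAMB minus EV, and, on TPM, CD46 and CD59 in xenografts. The shAMB count of 3 called members became 5 with GC content and length trends removed and 5 on deposited TPM, and lay between 2 and 4 with 1 library left out. The shAMB minus EV count of 3 became 1 with DESeq2 and 5 with the trends removed, and lay between 1 and 3 with 1 library left out, the 1 being without shAMB doxycycline replicate 1. The uninduced sh4 count of 0 became 1 with DESeq2 and 1 with the trends removed, and lay between 0 and 1. The xenograft count of 4 became 2 on TPM. The cause was not tested. Removing the trends moved the median of all genes by -0.13 in shAMB, and TPM moved it by 0.16 in sh4 and 0.17 in shAMB, so the TPM value of 0.27 for CD46 in shAMB is to be read against 0.17.

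Signs turned for differences near 0. In EV, CD46 was 0.0216 with the trends removed, and CD59 was -0.0207 with RLE scaling, -0.0208 with DESeq2, -0.00576 with the line alone and -0.0395 on TPM. RUNX1T1 in sh4 was 0.0621 on TPM, and in shAMB -0.0187 with RLE scaling, -0.0200 with DESeq2 and -0.0242 with the line alone. C1R in shAMB was -0.00121 with DESeq2, -0.373 with the trends removed and -0.00606 with the line alone. With the trends removed, RUNX1T1 in sh4 minus EV was -0.201, C1R in shAMB minus EV -0.0656, CD55 in uninduced shAMB -0.0145 and C1R in xenografts -0.0247. With 1 library left out the ranges were -0.417 to 0.0563 (C1R in EV), -0.0184 to 0.0329 (CD59 in EV), -0.0149 to 0.282 (C5 in sh4), -0.0980 to 0.219 (C1R in shAMB), -0.00628 to 0.0875 (RUNX1T1 in sh4 minus EV), -0.0870 to 0.121 (C5 in uninduced shAMB), -0.0264 to 0.105 (CD55 in uninduced shAMB), -0.0796 to 0.00200 (RUNX1T1 in uninduced shAMB) and -0.0932 to 0.253 (C1R in xenografts).

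Over all genes, the 14 calls in EV became 57 with the trends removed, 6 with the line alone and 7 to 14 with 1 library left out, the 6091 in sh4 became 3727 with the line alone, the 4856 in sh4 minus EV became 7557 without sh4 doxycycline replicate 3, the 167 in uninduced sh4 became 344 with DESeq2, 819 with the trends removed and 75 to 269 with 1 library left out (269 without EV DMSO replicate 3), the 227 in uninduced shAMB became 892 with the trends removed and as few as 125 with 1 library left out, and the 6555 in xenografts became 2128 on TPM. Of the other complement genes in xenografts, 3 called became 6 without a filter or with DESeq2, and 5 with the trends removed or without KO replicate 4, and 1 on TPM.

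Equal replicate numbers were not taken to pair libraries. Of 13 same-number correlations of deviations, 2 were over 0.1 (range -0.60 to 0.37). Unlike numbers reached 0.60, in sh4 DMSO replicate 1 with doxycycline replicate 3 and in control replicate 1 with KO replicate 4. Deviations from the mean of a small group are tied to each other, so these correlations cannot exclude pairing. With the replicate block the counts of called members were 4 in sh4, 3 in shAMB and 4 in xenografts, and 124 of 125 results were classed as unchanged. For a tested gene that means the same sign and side of the threshold. For a count of calls it means a similar size, and for C7 in culture a difference within the spread between libraries. The xenograft calls over all genes, classed as unchanged, were 2557 higher and 2372 lower with the block, against 3382 and 3173. Depth limits C1R, C5 and C7 in xenografts, at 5 to 107 counts.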
